A study of Mus musculus with 8 samples.

Results

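The liver both stores and makes glucose, and the genes described here act in that traffic. They are Pck1, G6pc and Fbp1 of gluconeogenesis, Hk2, Pklr, Pkm and Ldha of glycolysis, and Slc2a2, which encodes the glucose transporter GLUT2. Every probe whose annotated RefSeq transcript belongs to 1 of these 8 genes was taken, with no choice by signal. This gave 9 probes for 7 of the 8 genes, out of 26839 named probes for 18316 genes on the array. Ldha and Slc2a2 had 2 probes each and the other 5 genes 1 each. No probe matched Pck1 by accession, so this gene was not analysed here. All 9 probes were well above background on all 8 arrays and none was saturated.

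RNA of mouse liver had been hybridised to 8 Agilent 1-colour arrays, 1 for each genotype and time. Mxcre+ livers were Survivin-deleted and Mxcre- livers Survivin wild type, per the series design. Each genotype was taken at 0, 24, 36 and 48 h after partial hepatectomy, surgery after which the remaining liver regrows. The times are those of the sample titles, while a protocol note has the liver analysed 1 week after hepatectomy. Animals of both genotypes were of the strain 129/SV/B6, had been irradiated and transplanted with bone marrow 2 months before, and had been given poly(IC) 1 week before, so these treatments are shared by the controls. Mxcre is a Cre recombinase under an interferon-responsive promoter, which poly(IC) switches on in hepatocytes and in other cells of the liver and blood as well. The labels give no age, no genotype of the marrow donors, and no word on whether an array held 1 animal or a pool, and the sex is given only as male or female for all samples.

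Each group was a single array, so no spread between livers can be given. A level below is the log2 signal of a probe minus the 75th percentile of all probes kept on the same array, and an error is the standard error (SE) of a limma fit over all 8 arrays, with Benjamini-Hochberg adjustment over 14141 genes. In that fit the p-value sets the size of a change against the scatter left after the time and genotype terms. This scatter is pooled over all 4 times, so a gene has 1 SE for all its time differences. It reflects how unlike the genotype differences were over the times, and not variation between animals. The 0 and 24 h arrays lay on 1 slide and the 36 and 48 h arrays on the other, so time and slide cannot be told apart in comparisons across them. Birc5, which encodes Survivin, was 5.85-, 7.71-, 8.68- and 75.4-fold lower in Mxcre+ than in Mxcre- liver at 0, 24, 36 and 48 h. All 10 hepatocyte markers on the array (albumin, Apoa1 and others) were above background on every array, with a summed signal of 2632 to 3353 times the 75th percentile in Mxcre+ and 3003 to 3316 times in Mxcre- liver. In whole liver, fewer cells of a type and less RNA per cell cannot be told apart. Ddx3y, Eif2s3y and Kdm5d, genes of the Y chromosome, were above background on both 24 h arrays and on the Mxcre- arrays of 36 and 48 h, but not on the other 4.

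Glycolysis breaks glucose down to pyruvate, and gluconeogenesis runs most of the same steps backwards, with separate enzymes at the irreversible ones. Hepatocytes keep the forms suited to glucose export and to feeding-dependent storage (G6pc, Fbp1, the liver pyruvate kinase Pklr). Hk2 and Pkm are forms that dividing cells, muscle and leukocytes commonly use. Ldha was bright in these livers at 0 h, at 7.25 in Mxcre+ and 6.97 in Mxcre-, against 0.73 and 0.75 for Ldhb. Ldhb encodes the other lactate dehydrogenase subunit. After partial hepatectomy the remnant must hold blood glucose with less tissue while its cells prepare to divide.

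Promoter sequences are shown for 3 genes picked by their time changes in these data. Ldha was the only member that passed the test. Pklr and G6pc were lower on every later array than on either 0 h array. Pkm, which was higher on every later array than on either 0 h array, is not shown. Each sequence is the RefSeq window from 250 bases before to 50 bases after the annotated start (GRCm38.p6). It is printed 5′ to 3′ on the gene's strand. Capitals mark every match, on either strand, to CACGNG, the unit of carbohydrate response elements, or to ACGTG, the core of hypoxia response elements. CACGTG contains both. The windows are chr7:46845554-46845853 (plus strand) for Ldha, chr3:89136373-89136672 (plus strand) for the start of Pklr used in liver, which lies downstream of its other annotated start, and chr11:101367466-101367765 (plus strand) for G6pc.
Ldha: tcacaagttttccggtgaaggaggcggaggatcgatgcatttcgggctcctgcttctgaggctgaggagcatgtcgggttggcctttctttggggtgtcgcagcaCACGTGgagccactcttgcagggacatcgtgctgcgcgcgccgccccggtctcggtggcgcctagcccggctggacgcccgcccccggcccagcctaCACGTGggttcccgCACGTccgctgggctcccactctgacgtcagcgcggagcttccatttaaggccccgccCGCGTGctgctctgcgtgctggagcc
Pklr: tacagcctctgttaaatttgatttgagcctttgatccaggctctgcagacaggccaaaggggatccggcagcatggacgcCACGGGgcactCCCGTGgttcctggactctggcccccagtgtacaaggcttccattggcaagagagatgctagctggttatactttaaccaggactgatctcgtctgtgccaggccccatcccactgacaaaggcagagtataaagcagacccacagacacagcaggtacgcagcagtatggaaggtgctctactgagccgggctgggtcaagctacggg
G6pc: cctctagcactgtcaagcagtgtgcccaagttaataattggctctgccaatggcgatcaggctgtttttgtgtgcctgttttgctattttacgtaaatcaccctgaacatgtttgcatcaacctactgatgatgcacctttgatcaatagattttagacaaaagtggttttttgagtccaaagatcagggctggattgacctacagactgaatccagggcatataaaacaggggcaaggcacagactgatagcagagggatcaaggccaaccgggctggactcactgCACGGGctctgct
The Ldha window held CACGTG at positions -145 and -48 from the start, a further CACGT at -34 and a CGCGTG at 24. The Pklr window held CACGGG at position -170, followed by its reverse complement CCCGTG at -159. In the rat gene such a pair forms the carbohydrate response element bound by the glucose-sensing factor ChREBP. In the G6pc window the only match was CACGGG at position 37, and G6pc and Pklr each held a TATAAA box, at -29 and -31. Across all 32851 RefSeq promoter windows of this length, CACGNG occurred in 27.5%, ACGTG in 19.6%, CACGTG in 7.15% and TATAAA in 13.6%. All 8 genes had a window, 11 windows in all. CACGNG was found in 1 window each of G6pc, Pklr and Pkm and in both of Ldha, ACGTG in 1 window each of Ldha, Pkm and Hk2, and neither in Pck1, Fbp1 or Slc2a2. A match of these letters is a description of the window and not evidence of binding.

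G6pc encodes the catalytic subunit of glucose-6-phosphatase, which makes the last step of glucose release. Its level was 5.94, 4.66, 5.22 and 5.07 at 0, 24, 36 and 48 h in Mxcre+ liver, against 5.30, 4.80, 4.56 and 4.77 in Mxcre- liver. Both 0 h arrays were thus the highest of their genotype, and all 6 later arrays lay below both of them. At 24 h against 0 h the fitted difference was -0.89 ± 0.23 (log2, SE; 1.86-fold lower, limma adjusted p = 0.0780) and at 48 h -0.70 ± 0.23 (1.63-fold lower, limma adjusted p = 0.101), so neither passed the threshold of 0.05. The 24 h difference was 2.43-fold in Mxcre+ and 1.42-fold in Mxcre- liver, larger where the 0 h level was higher. When only genes above background on all 8 arrays were tested, the 24 h difference passed (limma adjusted p = 0.0496). With normexp background correction the differences were smaller, -0.70 at 24 h and -0.14 at 48 h.

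Fbp1 encodes the liver fructose-1,6-bisphosphatase, which bypasses the phosphofructokinase step in gluconeogenesis. Its level was 8.72, 8.25, 8.47 and 8.20 at the 4 times in Mxcre+ liver and 8.50, 7.82, 8.42 and 8.82 in Mxcre- liver. The 24 h level was below the 0 h level in both genotypes, by 0.47 and 0.69, and the 48 h level was below 0 h in Mxcre+ but above it in Mxcre- liver. No time difference of Fbp1 passed (24 h against 0 h -0.58 ± 0.27, limma adjusted p = 0.229).

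Slc2a2 encodes GLUT2, the transporter that carries glucose both ways across the hepatocyte membrane. Its brighter probe read 4.62, 4.42, 4.86 and 4.81 in Mxcre+ and 4.82, 4.86, 4.94 and 4.10 in Mxcre- liver at 0, 24, 36 and 48 h. The other probe read 1.97, 1.99, 1.89 and 1.85 in Mxcre+ and 2.34, 2.34, 2.46 and 1.39 in Mxcre- liver. Both probes had their lowest value on the Mxcre- 48 h array, which was 1.78- and 2.11-fold below the Mxcre- 36 h array. With that array the fitted difference of 48 h against 36 h was -0.44 ± 0.30, and without it 0.03; neither passed. The same array was also the highest of the 8 for Fbp1 and Hk2.

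Hk2 encodes hexokinase 2, the low-Km enzyme that adult hepatocytes hardly use. Its level was -4.27, -3.27, -3.11 and -3.34 in Mxcre+ liver and -2.86, -3.42, -3.76 and -2.70 in Mxcre- liver at the 4 times. These levels lay near the floor of measurement, since the dimmest signals that counted as above background had levels of -4.86 to -4.36 on the 8 arrays. The 2 genotypes had opposite signs at 24 h against 0 h, a 1.99-fold higher level at 24 h in Mxcre+ and a 1.48-fold lower one in Mxcre- liver. No fitted time difference of Hk2 passed (24 h against 0 h 0.21 ± 0.51, limma adjusted p = 0.815). Without the Mxcre+ 0 h array the 24 h difference was -0.52, and without the Mxcre+ 24 h array -0.094.

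Neutrophil markers moved with Hk2 at 0 h. Hk2 was 2.65-fold lower in Mxcre+ than in Mxcre- liver there, and all 10 neutrophil markers on the array, among them S100a8, S100a9, Mpo and Camp, were lower too, with a median difference of -3.06. Their summed signal was 8.40, 29.3, 70.8 and 91.5 times the 75th percentile in Mxcre+ liver at the 4 times, against 67.6, 56.0, 32.1 and 25.5 in Mxcre- liver. Between 8 and 10 of the 10 were above background on each array. The sum was thus higher at each later time in Mxcre+ liver and lower at each later time in Mxcre- liver. The difference between Mxcre+ and Mxcre- liver at 0, 24, 36 and 48 h was -1.41, 0.15, 0.65 and -0.64 for Hk2, against medians of -3.06, -0.91, 1.56 and 2.26 for the markers, so the signs matched at 0 and 36 h and differed at 24 and 48 h. Hk3, the hexokinase of myeloid cells, differed by -1.13, -0.28, 0.25 and 0.54 between Mxcre+ and Mxcre- liver at the 4 times, and the glucose transporter Slc2a3 of leukocytes and neurons by -1.42, -0.59, -0.05 and 0.63. All 11 macrophage markers were lower in Mxcre+ liver at 0 h as well (median -0.79). So were 9 of 11 T and NK cell markers, with a lower median than the macrophage markers, and all 5 B cell markers tested. The other 2 T and NK cell markers were higher. The lower marker signal at 0 h was thus not limited to myeloid cells. The part of these cells in the Hk2 level was not tested.

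**Figure D1:**
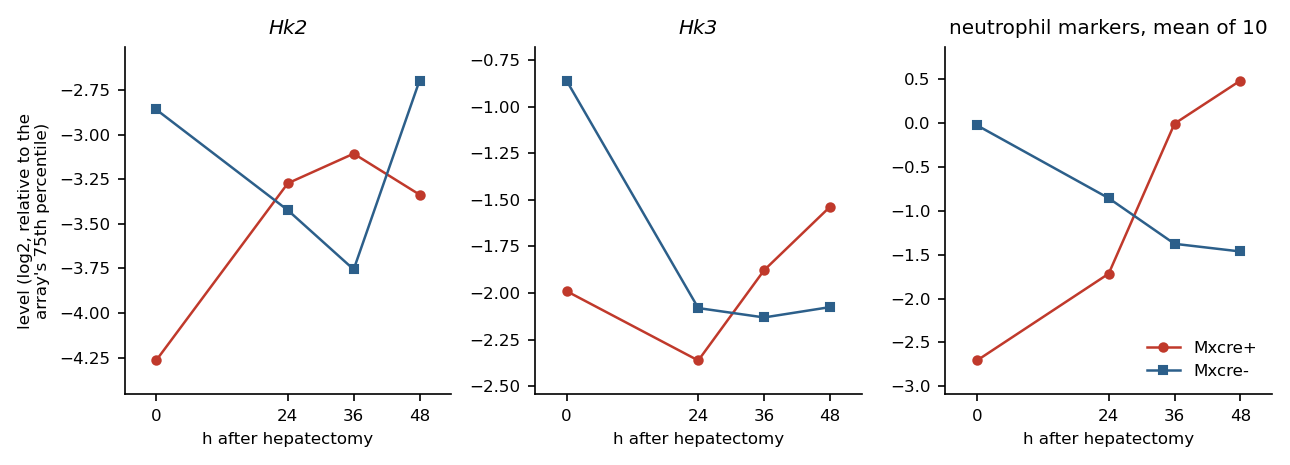
Levels of Hk2 and Hk3 and the mean level of 10 neutrophil markers (log2, less the 75th percentile of each array) against hours after hepatectomy, for Mxcre+ (circles) and Mxcre- (squares) liver, 1 array per point. At 0 h all 3 panels have Mxcre+ below Mxcre-, and at 48 h Hk3 and the markers have Mxcre+ above Mxcre- while Hk2 does not.

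Pklr encodes the pyruvate kinase of hepatocytes and red cells, which feeding induces in the liver. Its level was -0.28, -0.92, -0.48 and -0.98 in Mxcre+ liver and 0.11, -1.06, -1.11 and -0.99 in Mxcre- liver at the 4 times. Both 0 h arrays lay above all 6 later arrays. The fitted difference was -0.91 ± 0.26 at 24 h (1.88-fold lower, limma adjusted p = 0.0911) and -0.91 ± 0.26 at 48 h (1.87-fold lower, limma adjusted p = 0.0735), neither under the threshold. Both were smaller with normexp background correction (-0.40 and -0.54) and with the level of Y-linked genes as a covariate (-0.50 and -0.70).

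Pkm encodes the other pyruvate kinase gene, whose M2 form is common in proliferating cells; whether its probe tells the splice forms apart was not examined. Its level was -1.55, -0.79, -1.10 and -0.92 in Mxcre+ liver and -1.11, -0.65, -0.91 and -0.66 in Mxcre- liver. All 6 later arrays lay above both 0 h arrays, the opposite of Pklr, though the Mxcre+ 36 h array only just exceeded the Mxcre- 0 h array. The fitted difference was 0.61 ± 0.13 at 24 h (1.52-fold higher, limma adjusted p = 0.0554) and 0.54 ± 0.13 at 48 h (1.45-fold higher, limma adjusted p = 0.0531), close to the threshold without passing it. Both passed in the deposited log2 values (limma adjusted p = 0.0433 and 0.0412). With normexp background correction the 24 h difference was only 0.08, and the 48 h difference had the other sign (-0.13).

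Ldha encodes the lactate dehydrogenase subunit that favours lactate production from pyruvate, and it was the only member that passed a test. Its brighter probe read 7.25, 8.16, 8.58 and 8.40 in Mxcre+ liver and 6.97, 7.84, 8.21 and 8.42 in Mxcre- liver at 0, 24, 36 and 48 h. All 6 later arrays lay above both 0 h arrays, and the 24 h change was 1.88-fold in Mxcre+ and 1.82-fold in Mxcre- liver. Ldha rose 1.85-fold at 24 h (0.89 ± 0.14, limma adjusted p = 0.0336) and 2.46-fold at 48 h (1.30 ± 0.14, limma adjusted p = 0.0134), in both genotypes each time. It was 1 of the 7 measured members and the other 6 were not called in either direction, where 9.68% of all genes tested were called at 24 h and 17.6% at 48 h. The other probe read 5.75, 6.75, 7.49 and 7.16 in Mxcre+ and 5.34, 6.23, 6.97 and 6.93 in Mxcre- liver, and gave 1.93-fold at 24 h and 2.83-fold at 48 h. When each of the 20574 named probes above background was a feature of its own, both probes passed at both times (limma adjusted p = 0.0091 to 0.0347). The comparisons at 24 and 48 h share the 0 h arrays.

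The 24 h call of Ldha was lost when any 1 of the 8 arrays was left out (0.83 to 0.94, limma adjusted p = 0.0515 to 0.177). The 48 h call was lost without the Mxcre+ 0 h, Mxcre- 0 h or Mxcre- 48 h array (limma adjusted p = 0.0750, 0.0588 and 0.0654; 1.32, 1.27 and 1.13). With normexp background correction neither call held (1.10 and 1.90, limma adjusted p = 0.383 and 0.0690). The 24 h comparison lies within 1 slide but crosses arrays that differ in Y-linked signal. Among the 4 arrays without that signal, the Ldha level was 8.58 and 8.40 on the Mxcre+ arrays of 36 and 48 h, against 7.25 (Mxcre+) and 6.97 (Mxcre-) at 0 h. With the Y-linked level as a covariate the differences were 0.74 (limma adjusted p = 0.209) at 24 h and 1.23 (limma adjusted p = 0.0437) at 48 h. On the same 4 arrays G6pc was 5.22 and 5.07 against 5.94 and 5.30, and Pkm -1.10 and -0.92 against -1.55 and -1.11. Pklr was -0.48 and -0.98 against -0.28 and 0.11. Both later arrays of this set were Mxcre+ and lay on the other slide, so time and slide cannot be told apart in it. Cholangiocyte markers rose over the same interval (3 of 6 tested at each time, medians 1.17 and 0.96). Stellate cell markers rose for 1 of 8 at 24 h and 2 of 8 at 48 h (medians 0.46 and 0.39). Across all genes tested, 4.59% rose at 24 h and 8.27% at 48 h. T and NK cell markers fell (4 and 5 of 11, medians -1.38 and -1.05). Their summed signal was 2.54 and 3.53 in Mxcre+ and Mxcre- liver at 0 h. On the later arrays it was 1.50 to 1.86 in Mxcre+ and 1.41 to 1.75 in Mxcre- liver. Among B cell markers, 0 of 5 fell at 24 h and 2 of 5 at 48 h (medians -0.60 and -0.79). Erythroid markers fell for 1 of 6 tested at each time (medians -0.17 and -0.50). Of 10 hepatocyte markers 1 fell at 24 h and 2 at 48 h (medians -0.32 and -0.51), where 5.09% and 9.34% of all genes fell. No neutrophil marker was called at either time, with 9 of 10 positive at 48 h (median 0.86). That value averages opposite courses. The mean neutrophil marker level was -2.70 at 0 h and 0.48 at 48 h in Mxcre+ liver, against -0.03 and -1.47 in Mxcre- liver. The part of these cell types in the members' changes was not tested.

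**Figure D2:**
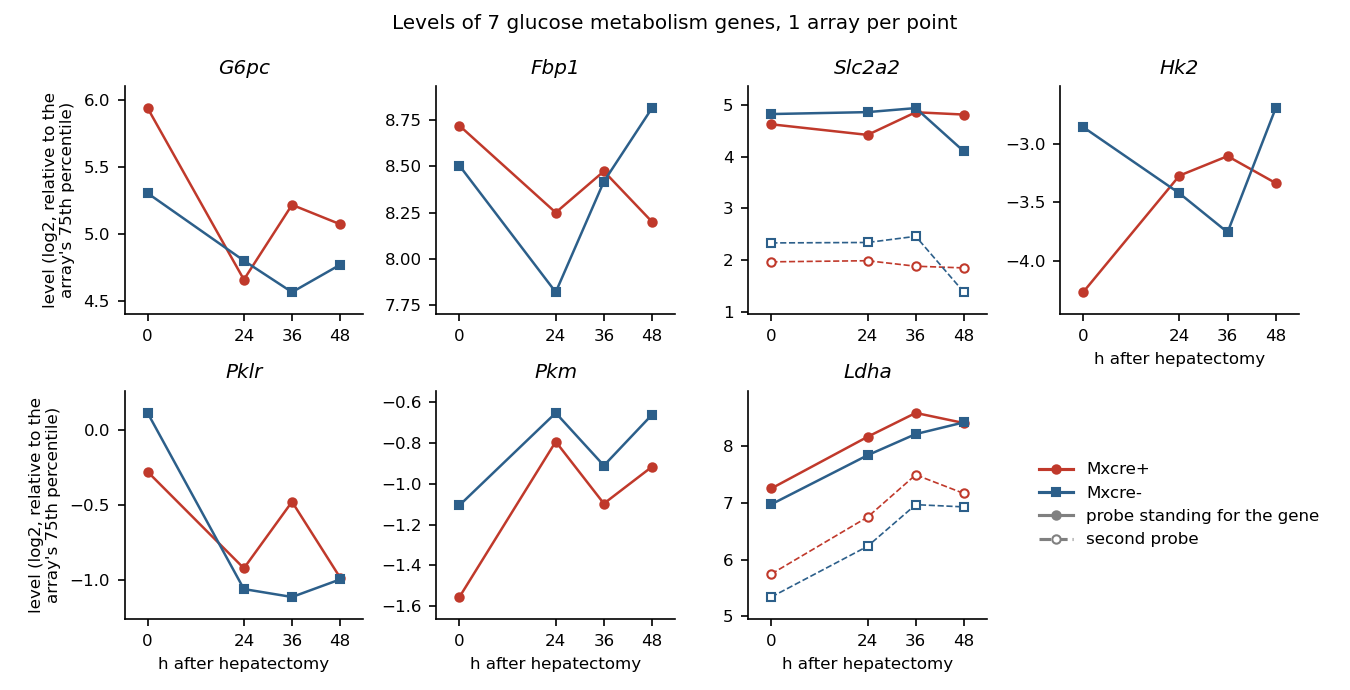
Level of each measured gene (log2, less the 75th percentile of each array; each panel has its own scale) against hours after hepatectomy in Mxcre+ (circles) and Mxcre- (squares) liver, 1 array per point, with the second probes of Slc2a2 and Ldha dashed. Ldha and Pkm have both 0 h arrays below all later ones, and G6pc and Pklr above.

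Ldha and Pkm were 2 of 2668 genes (18.9% of those tested) with all 6 later arrays above both 0 h arrays, and G6pc and Pklr 2 of 3062 genes (21.7%) with all 6 below. Such an order was therefore common on these arrays. No member passed between 36 and 24 h or between 48 and 36 h, comparisons in which 0.212% and 0.106% of all genes were called; Ldha was 0.40 ± 0.14 higher at 36 h than at 24 h (limma adjusted p = 0.318) and did not differ by more than its error between 48 and 36 h (0.01 ± 0.14). The median change of the 7 genes was -0.08 at 24 h and -0.10 at 48 h against 0 h, beside -0.02 and -0.07 over all genes, with 3 positive and 4 negative values each time.

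**Figure D3:**
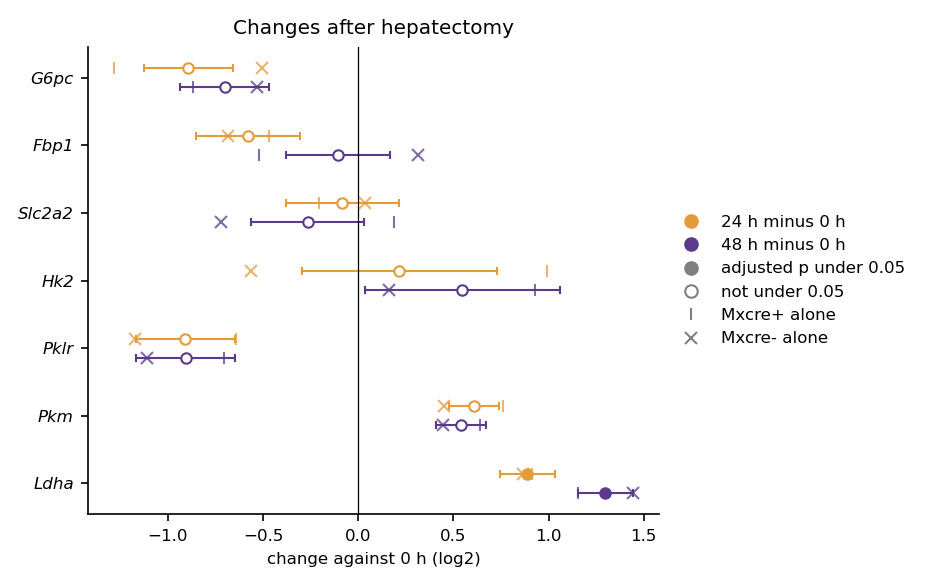
Fitted change against 0 h (log2, horizontal axis) of each gene at 24 and 48 h; circles with bars are the limma estimate over both genotypes and its SE, filled where the adjusted p is under 0.05, and the small marks are the differences within Mxcre+ and within Mxcre- liver. Only the 2 circles of Ldha are filled.

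The genotype comparison asks whether Mxcre+ livers, with lower Birc5 RNA, differed from Mxcre- livers in these genes, and no member passed it. The limma call rate over all genes was 0%, with 932 of 14141 genes (6.59%) at an unadjusted p under 0.05. Pkm was the only member of 1 sign throughout, lower in Mxcre+ than in Mxcre- liver by 0.45, 0.14, 0.19 and 0.25 at 0, 24, 36 and 48 h (-0.26 ± 0.09, 1.2-fold, limma adjusted p = 0.75; 9.27% of genes were lower at all 4 times). G6pc was higher in Mxcre+ liver at 0, 36 and 48 h and lower at 24 h (0.36 ± 0.16, limma adjusted p = 0.755). Ldha was higher in Mxcre+ liver by 0.28, 0.33 and 0.37 at 0, 24 and 36 h and 0.01 lower at 48 h (0.24 ± 0.10, limma adjusted p = 0.75); its other probe was higher at all 4 times, by 0.24 to 0.53. Fbp1, Pklr and Slc2a2 had fitted differences within 0.10 of 0, with 95% intervals of -0.48 to 0.52, -0.37 to 0.57 and -0.54 to 0.54, so a difference of up to 1.5-fold cannot be set aside for them at this size of study.

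Within single times, where 1 array stands against 1 and no test exists, differences of at least 1.5-fold were counted. At 0 h these were G6pc, 1.55-fold higher, and Hk2, 2.65-fold lower in Mxcre+ than in Mxcre- liver, 2 of 7 members beside 14.1% of all genes. At 24 h no member reached 1.5-fold (10.8% of genes). At 36 h G6pc (1.57-fold), Pklr (1.55-fold) and Hk2 (1.57-fold) were higher in Mxcre+ liver, beside 18% of genes. At 48 h Slc2a2 was 1.64-fold higher and Fbp1 (1.53-fold) and Hk2 (1.56-fold) lower, beside 19% of genes. Only G6pc and Hk2 at 0 h lay outside the range that holds the central 90% of all genes at that time, -0.93 to 0.54. The genotype difference at 36 and 48 h against that at 0 and 24 h was also fitted. No member and no gene passed it (0%, with 8.47% at an unadjusted p under 0.05), with Slc2a2 at 0.63 ± 0.34, Hk2 at 0.63 ± 0.75 and Fbp1 at -0.60 ± 0.30.

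**Figure D4:**
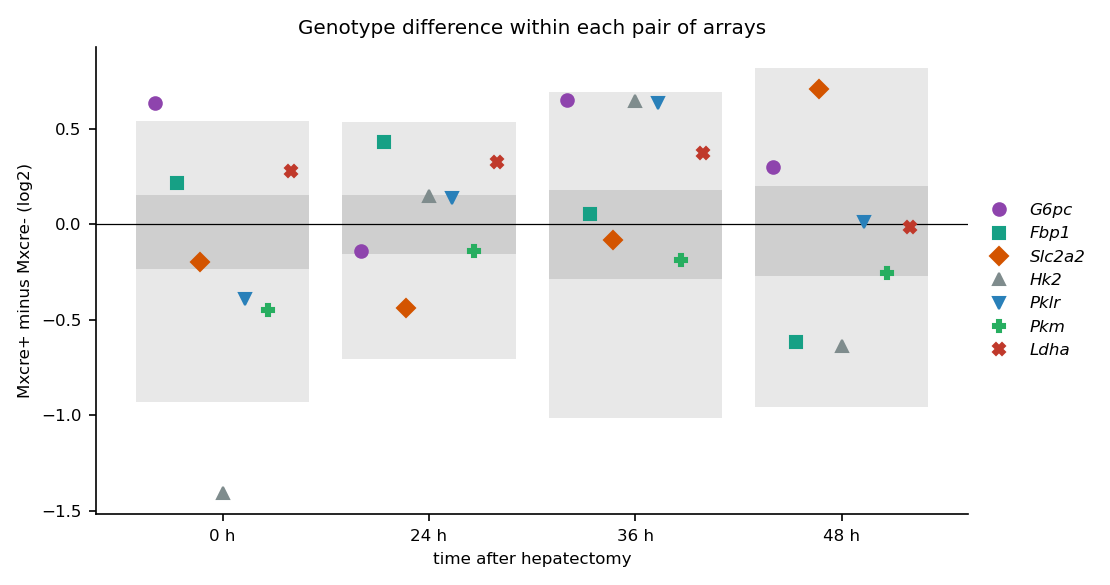
Difference between the Mxcre+ and Mxcre- array (log2, vertical axis) at each time for the 7 genes; light and dark grey bands hold the central 90% and 50% of the 14141 genes tested. Hk2 at 0 h (-1.41) lies farthest from the bands, and Pkm is below 0 at all 4 times.

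Other enzymes and regulators of the same pathways were taken from 9 lists. The shares of all genes to set beside the counts of each list are 4.59% higher and 5.09% lower at 24 h (9.68% in all), and 8.27% higher and 9.34% lower at 48 h (17.6% in all). Calls in the lists depended on the settings: of 17 named genes called at 24 h and 23 at 48 h, 0 and 1 were called with normexp background correction and 0 and 11 with the Y-linked covariate. With each of the 8 arrays left out in turn, 18 of 136 such calls held at 24 h and 58 of 184 at 48 h. Of 16 other glycolysis genes tested, 1 rose and none fell at 24 h against 0 h, and none rose and 1 fell at 48 h (medians -0.01 and 0.02), near or below the shares of all genes. Aldoa, the aldolase of muscle and of growing cells, rose 1.92-fold at 24 h (limma adjusted p = 0.0316) and was not called at 48 h. The muscle enolase Eno3 fell 1.53-fold at 48 h (limma adjusted p = 0.0475). Beside Hk2, Hk1 had 0.45 ± 0.19 at 48 h and Hk3 -0.38 ± 0.42, neither passing. Ldhb, the other lactate dehydrogenase subunit, had the opposite sign to Ldha (-0.85 ± 0.21 at 24 h, limma adjusted p = 0.0676, and -0.57 ± 0.21 at 48 h, limma adjusted p = 0.118), without passing.

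Among 11 other transporters of glucose, lactate and pyruvate, 1 rose and 2 fell at 24 h and 1 each rose and fell at 48 h, a share at 48 h close to the 17.6% of all genes. Slc16a1 encodes MCT1, which carries lactate and pyruvate across the membrane. Its level was 1.88, 3.71, 3.75 and 4.33 in Mxcre+ liver and 1.95, 3.37, 3.29 and 3.88 in Mxcre- liver. It rose 3.09-fold at 24 h (1.63 ± 0.17, limma adjusted p = 0.0214) and 4.57-fold at 48 h (2.19 ± 0.17, limma adjusted p = 0.00729), in the same direction as Ldha. The fructose transporter Slc2a5 fell 6.12-fold at 24 h and the urate transporter Slc2a9 fell 1.65-fold at 24 h and 1.74-fold at 48 h.

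Of 10 other gluconeogenesis genes, none was called at 24 h, and 2 rose and 2 fell at 48 h (median -0.17). Slc37a4, the transporter that feeds glucose-6-phosphate to the G6pc enzyme, was 6.33, 5.58, 5.44 and 5.09 in Mxcre+ liver and 6.06, 5.88, 5.61 and 5.02 in Mxcre- liver, and fell 2.20-fold at 48 h (limma adjusted p = 0.0216). The malate dehydrogenase Mdh1 fell 1.63-fold. Pck2, the mitochondrial counterpart of the Pck1 enzyme, rose 2.48-fold (limma adjusted p = 0.0289), and the muscle bisphosphatase Fbp2 4.95-fold by the fit, though it was above background on 1 of the 2 arrays of 0 h and had the other sign with normexp (-0.31). Of 19 regulators of gluconeogenesis, 0 rose and 5 fell at 24 h, and 0 rose and 6 fell at 48 h (medians -0.62 and -0.56), against 5.09% and 9.34% of all genes lower. The transcription factor Klf15 fell 2.91- and 3.04-fold, the hepatocyte factor Cebpa 2.38- and 2.83-fold and the coactivator Ppargc1b 2.58- and 2.72-fold at 24 and 48 h.

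Of 17 regulators of glycolysis and pyruvate use, 1 rose and 2 fell at both times, at 48 h the same share as the 17.6% of all genes. Mlxipl, which encodes ChREBP, was 6.14, 4.25, 3.72 and 3.86 in Mxcre+ and 5.71, 4.21, 4.08 and 4.42 in Mxcre- liver. It fell 3.24-fold at 24 h (limma adjusted p = 0.0316) and 3.45-fold at 48 h (limma adjusted p = 0.0201). Pklr, a gene that ChREBP is known to regulate, was 1.88- and 1.87-fold lower at these times without passing. A link between the Mlxipl and Pklr values was not tested. The pyruvate dehydrogenase kinase Pdk1 fell 4.59-fold at 24 h and 4.29-fold at 48 h, and Pdk3, not above background at 0 h, was at least 2.15- and 1.88-fold higher (limma adjusted p = 0.0256 and 0.0216), with the other sign under normexp at both times (-0.14 and -0.78). Of 12 targets or parts of the hypoxia response, 1 rose (Egln3, 1.76-fold) at 24 h, and 1 rose (Egln3, 2.00-fold) and 2 fell (Bnip3, 2.75-fold, and Vegfa, 2.11-fold) at 48 h, beside 9.68% and 17.6% of all genes called.

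Of 15 glycogen genes, 1 rose and 3 fell at 24 h and 1 rose and 4 fell at 48 h (medians -0.18 and -0.17), against 9.68% and 17.6% of all genes called. The liver glycogen synthase Gys2 fell 2.28- and 1.68-fold and the liver glycogen phosphorylase Pygl 1.97- and 1.62-fold at 24 and 48 h. Ppp1r3c, a subunit that targets protein phosphatase 1 to glycogen, rose 5.0-fold at 24 h, while its relative Ppp1r3b fell 4.84-fold at 48 h and Pgm2, a phosphopentomutase, rose 2.20-fold, with the other sign under normexp (-0.47). Ppp1r3g had -5.36 ± 0.94 at 24 h and was above background on 1 of the 2 arrays there. Of 8 fructose and galactose genes, 0 rose and 2 fell at 24 h (Sord 2.96-fold and Galm 2.78-fold), and 1 rose and 2 fell at 48 h (Mpi 1.73-fold, Sord 2.44-fold and the fructokinase Khk 2.06-fold). None of the 7 pentose phosphate genes was called. In the genotype comparison and the remaining ones no listed gene passed, the largest genotype values being -0.97 ± 0.45 for Slc2a4, above background on 3 of 8 arrays only, and 0.91 ± 0.22 for Fbp2, and the largest changes of genotype difference 2.28 ± 0.95 for Ppp1r3g and 2.00 ± 0.40 for Txnip. Ppp1r3g and Ppp1r3c had the largest values between 36 and 24 h (3.40 ± 0.94 and -1.47 ± 0.36), and Ppp1r3g and Ndrg1 between 48 and 36 h (-1.27 ± 0.94 and 1.03 ± 0.32).

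**Figure D5:**
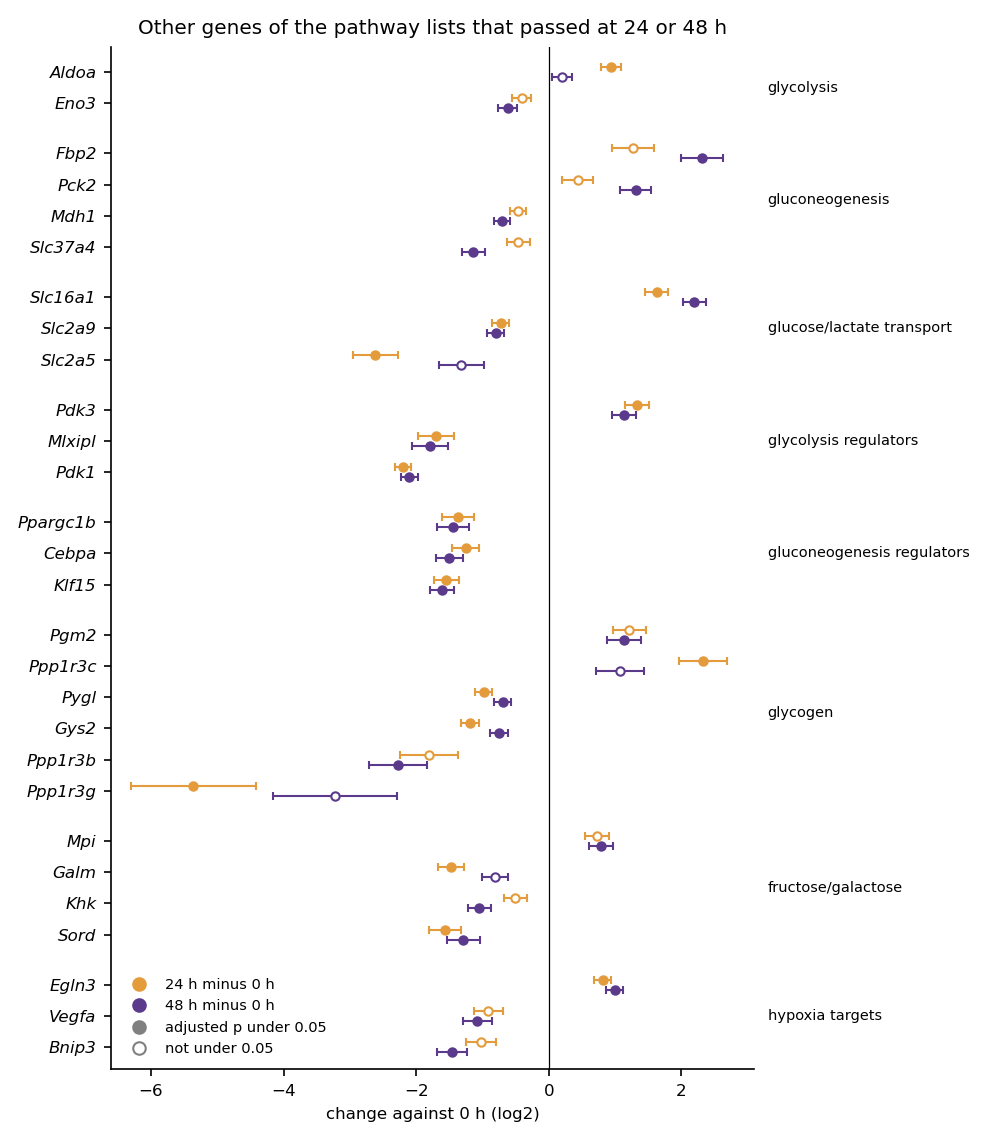
Fitted change against 0 h (log2, horizontal axis, with SE bars) of the other genes of the pathway lists named by the rule for passing at 24 or 48 h, grouped by list; filled circles have an adjusted p under 0.05. Slc16a1 is highest in the transport group at both times, and Mlxipl, Pdk1 and the regulators of gluconeogenesis lie below 0.

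For each member the 3 genes of most like course were taken by Pearson's r over the 8 arrays, among 12118 genes above background on all of them, as a description only. The arrays share their times and slides. For Ldha these were Slx4, Ostc and Fstl1 (r 0.988, 0.987 and 0.986), for Pkm Zfp105, Mcu and Col5a3 (0.978, 0.975 and 0.971) and for Pklr Eola1, H2-Q2 and Cdyl2 (0.965, 0.963 and 0.963). For G6pc they were Plagl1, Tent5a and Rc3h1 (0.982, 0.965 and 0.964), for Fbp1 Etfb, Naa80 and Thap1 (0.956, 0.954 and 0.920) and for Slc2a2 Tox, Usp28 and Ugp2 (0.937, 0.930 and 0.926), the last of which makes the glucose donor of glycogen. For Hk2 they were Sirpb1b, Supt20 and Bcl2a1b (0.993, 0.969 and 0.953), of which Sirpb1b and Bcl2a1b are genes of myeloid cells. Between members, r was 0.76 for G6pc with Pklr and -0.90 for G6pc with Pkm, while Ldha and Pkm had 0.53.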

How the data were processed

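Total RNA of 8 mouse livers or liver pools (the labels do not say which) was measured on 1-colour (Cy3) Agilent arrays. Per the file headers, each spot has a fluorescence intensity that was background-subtracted and spatially detrended by Agilent Feature Extraction 10.7.3.1 (10.7 in the submitters' processing notes), with no scaling between arrays. The deposited table holds log2 values whose method is not given in the sources used here. Its columns have 1 median (5.51), nearly the same sorted values and r of at least 0.999 with their own array, so it was read as quantile-normalised, and used as an alternative.

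Values are log2 of the processed signal minus the array's 75th percentile. Of 41174 probes, 41056 were kept; 26839 matched RefSeq (GRCm38.p6) by accession. The brightest probe stood for a gene, and genes above background on at least 2 arrays were tested (14141) in limma 3.58.1 (R 4.3.3), with time and genotype as terms (3 residual degrees of freedom), or genotype by late time added (2 left). The script was tested on simulated data. Between 60.2% and 66.0% of 43379 spots per array were well above background. The median SD of replicate spots was 0.09 to 0.14 (log2, 245 probes). The number of arrays limits the precision. The fold in "at least" statements is against the dimmest signals above background. Members and lists were chosen with earlier results of these data known. Some genes of these pathways are not reported here and were taken out of the lists. Named genes are all members and, for each comparison, up to 3 genes a list in each direction that passed, or else the 2 largest changes. The alternatives tried were the deposited values, normexp (offset 50), other filters and probe rules, single slides, a Y-linked covariate and arrays left out. Figures were drawn with matplotlib 3.10.9 in Python 3.11.15.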

Additional observations from a re-analysis of the deposited data

How the results depend on the processing

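Fewer arrays, a Y-linked covariate and normexp background correction lowered the number of genes called. At 24 h against 0 h, 1369 genes were called in the main setting, 32 with normexp, 573 with no filter on dim genes, 1 with the Y-linked covariate and 0 to 514 with 1 array left out. At 48 h against 0 h, 2490 were called in the main setting, 81 with normexp, 1553 with no filter, 1194 with the covariate and 86 to 1470 with 1 array left out. Under normexp 24 of the 32 calls and 71 of the 81 were higher, against 649 of 1369 and 1169 of 2490 in the main setting. At 36 h against 24 h the count was 30, and 17 in the deposited values, 0 with normexp, 9 with genes above background on all arrays, 13 with no filter, 0 with the covariate and 0 to 24 with 1 array left out. At 48 h against 36 h it was 15, and 2 in the deposited values, 5 with normexp, 27 with genes above background on all arrays, 2 with no filter, 31 with every probe a feature, 0 with the covariate and 0 with any array left out. The changed genotype difference called 0 genes, 1 with normexp and 24 where all times after hepatectomy were set against 0 h. The genotype count was 0 throughout. The causes were not tested.

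Signs of small member differences turned under several settings. In the deposited values Hk2 at 36 h against 24 h was 0.029 and Fbp1 at 48 h against 0 h was 0.044. With normexp the genotype values were -0.29 for Fbp1, 0.43 for Hk2, -0.0029 for Ldha, 0.10 for Pkm and 0.42 for Slc2a4. At 24 h against 0 h normexp gave -0.16 for Hk2, 0.13 for Slc2a2 and -0.14 for Pdk3, and at 36 h against 24 h -0.072 for Pklr. At 48 h against 0 h it gave 0.47 for Fbp1, -0.58 for Hk2, -0.13 for Pkm, 0.17 for Slc2a2, -0.31 for Fbp2, -0.78 for Pdk3 and -0.47 for Pgm2, and G6pc had a changed genotype difference of -0.39. The mean of the probes gave -0.085 for Ldha at 48 h against 36 h. On slide 1 alone the genotype value of Pklr was -0.13, and on slide 2 alone it was -0.28 for Fbp1, 0.0049 for Hk2 and 0.31 for Slc2a2. With the Y-linked covariate, Pklr had a genotype value of -0.12 and -0.035 at 36 h against 24 h, and Slc2a2 had 0.57, -0.11 and 0.057 at 24 h against 0 h, 36 h against 24 h and 48 h against 0 h. With all later times against 0 h, G6pc had a changed genotype difference of -0.36.

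With 1 pair or array left out, genotype values ranged from -0.11 to 0.23 for Fbp1, -0.63 to 0.054 for Hk2, -0.081 to 0.26 for Pklr and -0.24 to 0.14 for Slc2a2. At 24 h against 0 h the range was -0.52 to 0.94 for Hk2 and -0.38 to 0.21 for Slc2a2. At 36 h against 24 h it was -0.17 to 0.50 for G6pc, -0.72 to 0.56 for Hk2, -0.16 to 0.55 for Pklr and -0.034 to 0.55 for Slc2a2. At 48 h against 36 h it was -0.36 to 0.49 for Fbp1, -0.16 to 0.22 for G6pc, -0.23 to 1.05 for Hk2, -0.15 to 0.18 for Ldha, -0.55 to 0.16 for Pklr, -0.91 to 0.035 for Slc2a2 and -2.82 to 0.28 for Ppp1r3g. At 48 h against 0 h it was -0.53 to 0.32 for Fbp1, -0.18 to 1.28 for Hk2 and -0.74 to 0.21 for Slc2a2.

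Ldha was positive under every setting at 24 and 48 h against 0 h. It lost its 24 h call with normexp (1.10, limma adjusted p = 0.383), no filter (limma adjusted p = 0.0588), the covariate (0.74, limma adjusted p = 0.209) and any 1 array left out, and its 48 h call with normexp (1.90, limma adjusted p = 0.0690) and without either 0 h array or the Mxcre- 48 h array. Of the 17 other pathway genes named at 24 h, 17 kept the call in the deposited values, 8 with no filter, 0 with normexp and 0 with the covariate; of the 23 at 48 h, 21, 16, 1 and 11 did. No paired analysis was possible because the labels give no replicate numbers; the time term of the genotype fit already sets the 2 arrays of each time against each other. The planned normexp on mean spot signals was run on median spot signals, a choice made after seeing the data.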
